A study of Mus musculus with 15 samples.

Results

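The genes of oxidative phosphorylation that are encoded in the nucleus were followed across 5 groups of male FVB/NJ mouse liver. They were taken by symbol, as the Nduf, Sdh, Uqcr, Cox4 to Cox8 and Atp5 families, with a mean of at least 1 CPM over the 15 libraries (CPM, counts scaled to a common library total). Of 24411 listed symbols, 84 matched by name and 77 passed that level. By name, 36 belong to complex I, 4 to complex II, 8 to complex III, 12 to complex IV and 17 to complex V.

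Polyadenylated RNA was sequenced from 3 libraries in each group. One group was wild-type liver. The livers of the other 4 groups are labelled with combinations of S45Y-CTNNB1 (mutant beta-catenin), G31A-NFE2L2 (mutant NRF2) and hMET (human MET): all 3 genes together, S45Y-CTNNB1 with hMET, S45Y-CTNNB1 with G31A-NFE2L2, and G31A-NFE2L2 with hMET. These groups are called CTNNB1+NFE2L2+MET, CTNNB1+MET, CTNNB1+NFE2L2 and NFE2L2+MET here. The labels give no age, time, vector, promoter or tumour content, so how far each liver consisted of altered cells was not tested. They also do not say that libraries came from separate animals, and the p-values measure only the spread between libraries, which may be technical. The series' title asks for a gene signature of mutated beta-catenin in liver cancer, and the 10 comparisons between the 5 groups share libraries, each group standing in 4 of them.

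Oxidative phosphorylation takes electrons from NADH at complex I and from succinate at complex II, and passes them by coenzyme Q to complex III, by cytochrome c to complex IV and on to oxygen. Complexes I, III and IV pump protons across the inner mitochondrial membrane, and complex V, the ATP synthase, lets them return and makes ATP. Most subunits are encoded in the nucleus and a core set in mitochondrial DNA. Hepatocytes are rich in mitochondria and use this ATP for gluconeogenesis, urea synthesis and secretion.

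The transcripts of this machinery were highest in CTNNB1+NFE2L2 livers, and which group was lowest depended on how the libraries were scaled. With TMM scaling, the one used for all levels here unless another is named, the mean level was highest in CTNNB1+NFE2L2 for 57 of 77 genes and lowest in CTNNB1+NFE2L2+MET for 59, beside 21.6% and 21.6% of all tested genes. With libraries scaled by their total count, CTNNB1+NFE2L2 was highest for 70 genes, beside 27.1% of all tested genes. The lowest group was then NFE2L2+MET for 58 genes and CTNNB1+NFE2L2+MET for 8, beside 35.6% and 9.11% of all tested genes. Between CTNNB1+NFE2L2+MET and CTNNB1+NFE2L2 the direction was the same under both scalings. Between these 2 groups 64 genes were lower in CTNNB1+NFE2L2+MET, none was higher and 13 did not pass the test, with a median log2 fold change of -0.56. The test was edgeR's quasi-likelihood test with Benjamini-Hochberg adjustment over 14098 tested genes, at an adjusted p below 0.05. Of all tested genes, 11.8% were lower in this comparison and 13.1% higher, with a median log2 fold change of 0.03. The 5 groups differed in 66 of the 77 genes, beside 65.5% of all tested genes.

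**Figure D1:**
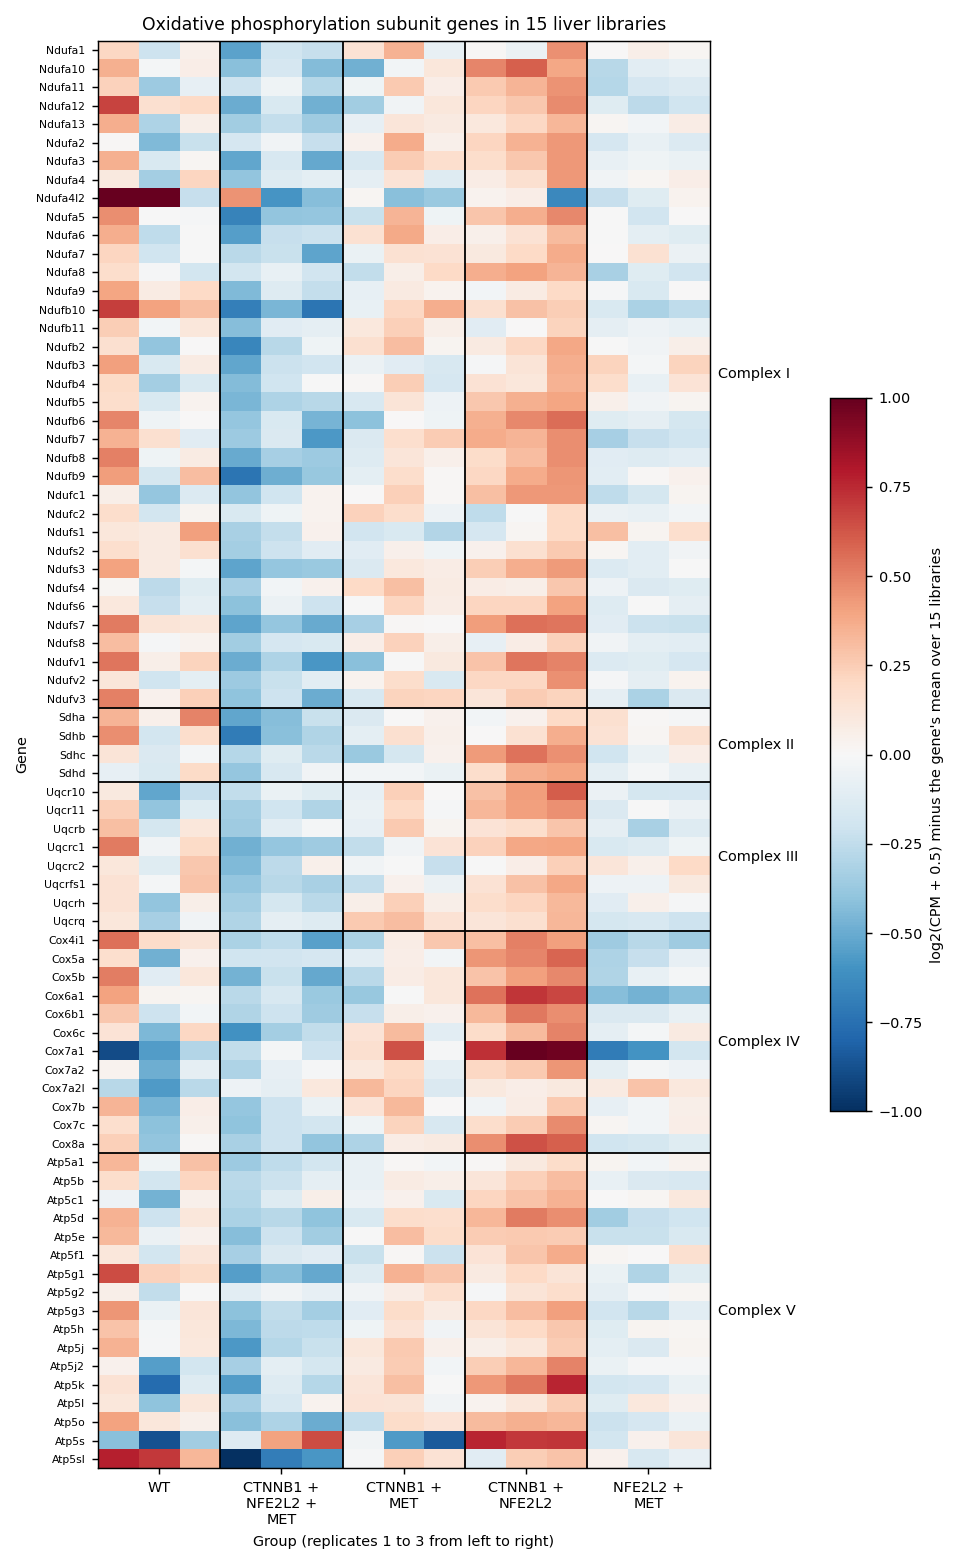
Heat map of 77 genes (rows, by complex) in 15 libraries (columns, by group). Colour gives log2(CPM + 0.5), TMM-scaled, minus the gene's own mean over all libraries; the CTNNB1+NFE2L2 columns are mostly above the mean and the CTNNB1+NFE2L2+MET columns mostly below it.

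The promoters of 4 genes that recur below are shown first, because each holds a recognition sequence of a regulator of these genes. NRF1, the ETS factor GABPA and YY1 are textbook regulators of these genes. The windows run from 250 bases before to 50 bases after the start (RefSeq, GRCm38.p6, both strands searched), 5′ to 3′ on the gene's strand. Capitals mark CGCATGCG, the NRF1 core, in Cox6a1 and Uqcr11; CCGGAAGT, a GABPA motif, in Uqcr11 and, as its reverse complement, at 2 places in Cox8a; and AAGATGGCG, a YY1 motif, in Ndufs7.
Cox6a1, chr5:115348909-115349208, - strand: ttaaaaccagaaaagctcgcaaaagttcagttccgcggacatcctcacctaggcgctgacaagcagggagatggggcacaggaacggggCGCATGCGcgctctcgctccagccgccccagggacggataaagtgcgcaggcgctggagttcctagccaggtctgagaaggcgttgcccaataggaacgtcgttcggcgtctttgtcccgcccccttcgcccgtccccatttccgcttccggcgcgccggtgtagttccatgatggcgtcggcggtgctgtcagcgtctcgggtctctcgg
Uqcr11, chr10:80406772-80407071, - strand: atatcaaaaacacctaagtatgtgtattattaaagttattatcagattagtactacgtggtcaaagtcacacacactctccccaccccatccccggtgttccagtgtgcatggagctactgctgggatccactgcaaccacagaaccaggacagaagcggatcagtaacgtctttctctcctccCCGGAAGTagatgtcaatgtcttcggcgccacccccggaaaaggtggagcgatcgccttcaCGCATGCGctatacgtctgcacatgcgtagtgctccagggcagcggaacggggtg
Cox8a, chr19:7217567-7217866, - strand: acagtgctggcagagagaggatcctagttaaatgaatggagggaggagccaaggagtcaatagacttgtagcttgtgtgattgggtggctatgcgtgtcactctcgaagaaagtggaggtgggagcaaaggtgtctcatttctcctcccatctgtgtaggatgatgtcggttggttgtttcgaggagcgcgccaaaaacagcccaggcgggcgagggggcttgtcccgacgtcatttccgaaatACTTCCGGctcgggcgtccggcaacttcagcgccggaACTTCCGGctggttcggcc
Ndufs7, chr10:80249199-80249498, + strand: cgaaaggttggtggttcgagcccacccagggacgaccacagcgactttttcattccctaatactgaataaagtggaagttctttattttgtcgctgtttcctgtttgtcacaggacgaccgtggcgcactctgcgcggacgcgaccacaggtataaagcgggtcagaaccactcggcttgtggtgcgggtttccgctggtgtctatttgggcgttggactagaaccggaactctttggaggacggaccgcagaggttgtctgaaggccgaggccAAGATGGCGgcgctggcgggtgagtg
The table held promoters for 65 of the 77 genes, 71 windows in all. The NRF1 core was in 12.7% of these windows and in 1.87% of all 32851 windows of that length. The YY1 motif was in 12.7% and 1.40%, the GABPA motif in 7.04% and 3.89%, and the ERR motif TCAAGGTCA in 2.82% and 0.423%. The antioxidant response element TGACNNNGC, which NRF2 binds, was in 12.7% and 12.4%, and the TCF motif CTTTGAT, which beta-catenin's partners bind, in 1.41% and 3.73%. A match is a run of letters and not a measured site. The 9 genes with an NRF1 core had a median log2 fold change of -0.53 for CTNNB1+NFE2L2+MET over CTNNB1+NFE2L2, and the 56 without it -0.57. For CTNNB1+NFE2L2 over wild type the medians were 0.37 and 0.21.

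The libraries held 14084343 to 20702618 gene counts each. Libraries of 1 group differed from each other in the whole set: wild-type replicate 2 was the lowest of its group in 64 of the 77 genes and replicate 1 the highest in 63, beside 32.9% and 32.2% of all tested genes. Likewise CTNNB1+NFE2L2+MET replicate 1 was the lowest of its group in 57 genes and CTNNB1+NFE2L2 replicate 1 in 66. Unmapped reads were 19.8 to 25.9% in wild type, 15.8 to 19.1% in CTNNB1+MET, 12.7 to 14.2% in NFE2L2+MET, 8.69 to 11.2% in CTNNB1+NFE2L2+MET and 9.71 to 11.8% in CTNNB1+NFE2L2, so they overlapped between the last 2 groups. Hepatocyte markers (9 genes, summed) ran from 29768 to 38802 CPM in CTNNB1+NFE2L2 and from 71719 to 79304 CPM in CTNNB1+NFE2L2+MET, and macrophage markers (10 genes) from 613 to 828 and from 624 to 923 CPM. Of the 9 hepatocyte genes, 3 were higher in CTNNB1+NFE2L2+MET than in CTNNB1+NFE2L2 and 6 did not pass, with a median log2 fold change of 0.43. The 2 tested erythroid markers were both lower there, summed to 23.4 to 33.7 CPM in CTNNB1+NFE2L2 and 9.57 to 13.3 CPM in CTNNB1+NFE2L2+MET, and the other 4 of that list, hemoglobin genes, were listed at 0 in every library. Alas2, which starts heme synthesis in red cell precursors, was at 27.3, 28.3 and 21.9 CPM and at 12.95, 9.57 and 11.4 CPM. In the same comparison 13.1% of all tested genes were higher and 11.8% lower. There 2 of 7 T and NK cell and 2 of 6 B and plasma cell markers were higher. So were 2 of 8 stellate and 2 of 6 cholangiocyte markers, and none of the macrophage, endothelial and neutrophil markers passed. The part of all these in the results was not tested. In bulk liver, fewer cells of a type and less RNA per cell cannot be told apart.

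The counts of the mouse genes Ctnnb1, Nfe2l2 and Met do not check the introduced genes, since hMET is human and the labels do not give the species of the other introduced genes. Ctnnb1 was at 243 to 295 CPM in wild type and at 310 to 454 CPM in the other 4 groups, NFE2L2+MET included. Nfe2l2 was at 39.2 to 56.7 CPM in wild type and 48.9 to 88.1 CPM elsewhere, and Met at 53.6 to 96.0 and 64.9 to 91.7 CPM.

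In complex I, the NADH dehydrogenase, 30 of 36 genes were lower in CTNNB1+NFE2L2+MET than in CTNNB1+NFE2L2, with a median log2 fold change of -0.53. Ndufs7, an iron-sulphur subunit on the path of electrons to coenzyme Q, was at 124, 136 and 135 CPM in CTNNB1+NFE2L2 and at 64.2, 70.5 and 65.2 CPM in CTNNB1+NFE2L2+MET. In the other groups it was at 132.9, 101.4 and 99.99 CPM in wild type, 73.5, 93.3 and 92.9 CPM in CTNNB1+MET, and 85.5, 79.7 and 79.4 CPM in NFE2L2+MET. Every CTNNB1+NFE2L2 library was above every CTNNB1+NFE2L2+MET library, and the groups did not overlap. For Ndufs7 the log2 fold change was -0.98 ± 0.12 (SE; edgeR adjusted p = 5.82e-05). It was also lower in CTNNB1+NFE2L2+MET than in wild type, by a log2 fold change of -0.74 ± 0.12 (edgeR adjusted p = 0.000103), and both calls passed under every alternative.

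Ndufb10, an accessory subunit of the membrane arm, followed another order. Its level was 164, 134 and 125 CPM in wild type and 113, 124 and 120 CPM in CTNNB1+NFE2L2, which lay just below wild type without overlap. In CTNNB1+NFE2L2+MET it was 63.0, 73.6 and 60.8 CPM, in NFE2L2+MET 91.2, 81.4 and 85.0 CPM and in CTNNB1+MET 96.3, 117.3 and 130 CPM. Every library of CTNNB1+NFE2L2+MET, NFE2L2+MET and CTNNB1+NFE2L2 was thus below every wild-type library with TMM scaling, and CTNNB1+MET overlapped wild type. With total-count scaling CTNNB1+NFE2L2 overlapped wild type too. Against wild type the log2 fold change was -1.10 ± 0.13 in CTNNB1+NFE2L2+MET (edgeR adjusted p = 4.57e-06) and -0.71 ± 0.12 in NFE2L2+MET (edgeR adjusted p = 0.000877).

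Ndufb9, another membrane arm subunit, was at 108, 128 and 138 CPM in CTNNB1+NFE2L2+MET and at 208, 232 and 245 CPM in CTNNB1+NFE2L2, with no overlap and a log2 fold change of -0.87 ± 0.14 (edgeR adjusted p = 0.000598). Ndufa2, a small subunit of the matrix arm, was at 66.1 to 91.0 CPM in wild type and 104 to 121.4 CPM in CTNNB1+NFE2L2, a log2 fold change of 0.54 ± 0.12 (edgeR adjusted p = 0.00161). Not every complex I gene moved. Ndufs1, the largest iron-sulphur subunit, was at 83.6, 95.2 and 108 CPM in CTNNB1+NFE2L2 and at 74.6, 79.6 and 96.4 CPM in CTNNB1+NFE2L2+MET. These ranges overlapped, and its log2 fold change of -0.19 ± 0.13 did not pass (edgeR adjusted p = 0.282).

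All 4 genes of complex II, succinate dehydrogenase, which also works in the TCA cycle, were lower in CTNNB1+NFE2L2+MET than in CTNNB1+NFE2L2. They split by group, however. Sdhc, which anchors the enzyme in the membrane, was at 246, 267 and 251 CPM in CTNNB1+NFE2L2, while the 12 libraries of the other 4 groups lay between 141 and 200.3 CPM. Its log2 fold change was 0.49 ± 0.12 for CTNNB1+NFE2L2 over wild type (edgeR adjusted p = 0.00284) and -0.70 ± 0.12 for CTNNB1+NFE2L2+MET over CTNNB1+NFE2L2 (edgeR adjusted p = 0.000654). Sdhd, the other membrane anchor, was at 214, 244 and 250 CPM in CTNNB1+NFE2L2 and 145, 170 and 185 CPM in CTNNB1+NFE2L2+MET, a log2 fold change of -0.50 ± 0.11 (edgeR adjusted p = 0.00475).

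Sdhb, the iron-sulphur subunit, was at 135, 164 and 177 CPM in CTNNB1+NFE2L2+MET. Wild type was at 301, 192 and 246 CPM, CTNNB1+NFE2L2 at 219, 243 and 281 CPM, CTNNB1+MET at 204, 244 and 226 CPM and NFE2L2+MET at 241, 222 and 244 CPM. No library of the other 4 groups was as low as any of CTNNB1+NFE2L2+MET, but with total-count scaling they overlapped. Sdhb had a log2 fold change of -0.64 ± 0.15 over both wild type (edgeR adjusted p = 0.00277) and CTNNB1+NFE2L2 (edgeR adjusted p = 0.00659), and 0.01 ± 0.15 for CTNNB1+NFE2L2 over wild type (edgeR adjusted p = 0.973). Sdha, the flavoprotein that oxidises succinate, was at 298, 318 and 367 CPM in CTNNB1+NFE2L2+MET and 541, 444 and 605 CPM in wild type, without overlap, a log2 fold change of -0.69 ± 0.13 (edgeR adjusted p = 0.000373). Against CTNNB1+NFE2L2, the call of Sdha was lost without CTNNB1+NFE2L2+MET replicate 1 (-0.40, edgeR adjusted p = 0.069) or 2 (-0.44, edgeR adjusted p = 0.0541) or CTNNB1+NFE2L2 replicate 3 (-0.40, edgeR adjusted p = 0.0719).

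In complex III, which passes electrons from coenzyme Q to cytochrome c, 6 of 8 genes were lower in CTNNB1+NFE2L2+MET than in CTNNB1+NFE2L2. Uqcr10, a small subunit, was at 178, 194 and 220 CPM in CTNNB1+NFE2L2, at 121.96, 138 and 133 CPM in CTNNB1+NFE2L2+MET and at 155, 100.8 and 123 CPM in wild type. All 3 CTNNB1+NFE2L2 libraries were above those of both other groups, which overlapped each other. Its log2 fold change was 0.64 ± 0.14 for CTNNB1+NFE2L2 over wild type (edgeR adjusted p = 0.00134). Uqcrc1, a core protein of the complex, was at 171, 183 and 187 CPM in CTNNB1+NFE2L2+MET, below the 233 to 342 CPM of wild type and the 281 to 314 CPM of CTNNB1+NFE2L2. Its log2 fold changes were -0.65 ± 0.13 (edgeR adjusted p = 0.000756) and -0.75 ± 0.13 (edgeR adjusted p = 0.00100).

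Uqcrfs1, the Rieske iron-sulphur protein, was at 139, 150 and 145 CPM in CTNNB1+NFE2L2+MET and at 201, 223 and 238 CPM in CTNNB1+NFE2L2, a log2 fold change of -0.61 ± 0.11 (edgeR adjusted p = 0.000990). Uqcr11, whose promoter is shown above, was at 143, 157 and 147 CPM and at 227, 240 and 248 CPM, a log2 fold change of -0.68 ± 0.13 (edgeR adjusted p = 0.00178). Neither gene's groups overlapped.

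Complex IV, cytochrome c oxidase, had the largest median among the 5 complexes, with 10 of 12 genes lower in CTNNB1+NFE2L2+MET than in CTNNB1+NFE2L2 and a median log2 fold change of -0.73. Against wild type, 7 of its 12 genes were higher in CTNNB1+NFE2L2. Cox6a1, the form of subunit 6a used in most tissues, was at 448, 506 and 487 CPM in CTNNB1+NFE2L2. It was at 407, 313 and 312 CPM in wild type, 236, 307 and 332 CPM in CTNNB1+MET, 254, 275 and 238 CPM in CTNNB1+NFE2L2+MET and 229, 221 and 230 CPM in NFE2L2+MET. The CTNNB1+NFE2L2 libraries were above all 12 others, and those of NFE2L2+MET were below all 12 others.

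The log2 fold change of Cox6a1 was 1.08 ± 0.14 for CTNNB1+NFE2L2 over NFE2L2+MET (edgeR adjusted p = 2.06e-05) and 0.48 ± 0.14 over wild type (edgeR adjusted p = 0.00806). It was -0.60 ± 0.14 for NFE2L2+MET over wild type (edgeR adjusted p = 0.00524). Cox6a1, whose promoter is shown above, shares 12.3% of the 50-base stretches of its transcripts with 1 other gene, so a small part of its counts could be uncertain.

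Cox4i1, the regulatory subunit 4 of most tissues, was at 640, 496 and 479 CPM in wild type and at 539, 622 and 581 CPM in CTNNB1+NFE2L2. It was at 351, 367 and 301 CPM in CTNNB1+NFE2L2+MET and at 341, 362 and 341 CPM in NFE2L2+MET. The last 2 groups overlapped each other and lay below every wild-type library, with log2 fold changes of -0.67 ± 0.15 (edgeR adjusted p = 0.00185) and -0.63 ± 0.15 (edgeR adjusted p = 0.00783). CTNNB1+MET was at 350, 460 and 527 CPM and overlapped wild type.

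Cox8a, the common form of the smallest subunit, was at 370, 416 and 405 CPM in CTNNB1+NFE2L2, at 213, 232 and 203 CPM in CTNNB1+NFE2L2+MET and at 316, 203 and 270 CPM in wild type. The log2 fold changes were 0.60 ± 0.15 for CTNNB1+NFE2L2 over wild type (edgeR adjusted p = 0.00337) and -0.88 ± 0.15 for CTNNB1+NFE2L2+MET over CTNNB1+NFE2L2 (edgeR adjusted p = 0.000671). Cox6b1, which bridges the oxidase dimer, was at 227, 260 and 250.1 CPM in CTNNB1+NFE2L2 and 147, 157 and 141 CPM in CTNNB1+NFE2L2+MET, a log2 fold change of -0.73 ± 0.12 (edgeR adjusted p = 0.000654).

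In complex V, 14 of 17 genes were lower in CTNNB1+NFE2L2+MET than in CTNNB1+NFE2L2, with a median log2 fold change of -0.52. The membrane ring that turns with the proton flow is made of subunit c, and 3 genes, Atp5g1, Atp5g2 and Atp5g3, encode that same mature protein. These 3 genes differed. Atp5g1 was at 94.7, 104 and 97.35 CPM in CTNNB1+NFE2L2+MET, below all other libraries, which ranged from 113 CPM in NFE2L2+MET to 219 CPM in wild type. With total-count scaling it overlapped NFE2L2+MET. Its log2 fold change over wild type was -0.87 ± 0.14 (edgeR adjusted p = 8.93e-05).

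Atp5g3 was at 252, 282 and 264 CPM in CTNNB1+NFE2L2+MET and at 386, 415 and 443 CPM in CTNNB1+NFE2L2, with no overlap and a log2 fold change of -0.64 ± 0.13 (edgeR adjusted p = 0.00241). Atp5g2 stayed between 87.9 and 117.9 CPM in all 15 libraries, the 5 groups overlapped, and the test across groups did not pass (edgeR adjusted p = 0.323). Per kilobase of exon Atp5g3 had the highest mean level of the 3, at 469 CPM per kilobase, beside 143 for Atp5g2 and 29.1 for Atp5g1. The annotated exons span 724, 731 and 4912 bases in that order, so length sets the order of the last 2. Without division by length, and with total-count scaling, the means were 341 CPM for Atp5g3, 105.2 for Atp5g2 and 142.5 for Atp5g1. Atp5g1 shares 10.6% and Atp5g2 14.8% of their 50-base stretches with other genes, so part of their counts is uncertain. Whether they share stretches with each other was not examined.

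Atp5k, a small subunit at the dimer interface of the synthase, was at 164, 176 and 206 CPM in CTNNB1+NFE2L2, above the 70.9 to 149 CPM of the other 12 libraries. Its log2 fold change was 0.79 ± 0.18 over wild type (edgeR adjusted p = 0.00245) and 0.72 ± 0.18 over NFE2L2+MET (edgeR adjusted p = 0.00615). Atp5b, the catalytic beta subunit, had the highest level of all 77 genes per kilobase, at 656 CPM per kilobase. It was at 1358, 1473 and 1544 CPM in CTNNB1+NFE2L2, at 1033, 1078 and 1174 CPM in CTNNB1+NFE2L2+MET and at 1408, 1100 and 1447 CPM in wild type. The test across the 5 groups did not pass for Atp5b (edgeR adjusted p = 0.0526).

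**Figure D2:**
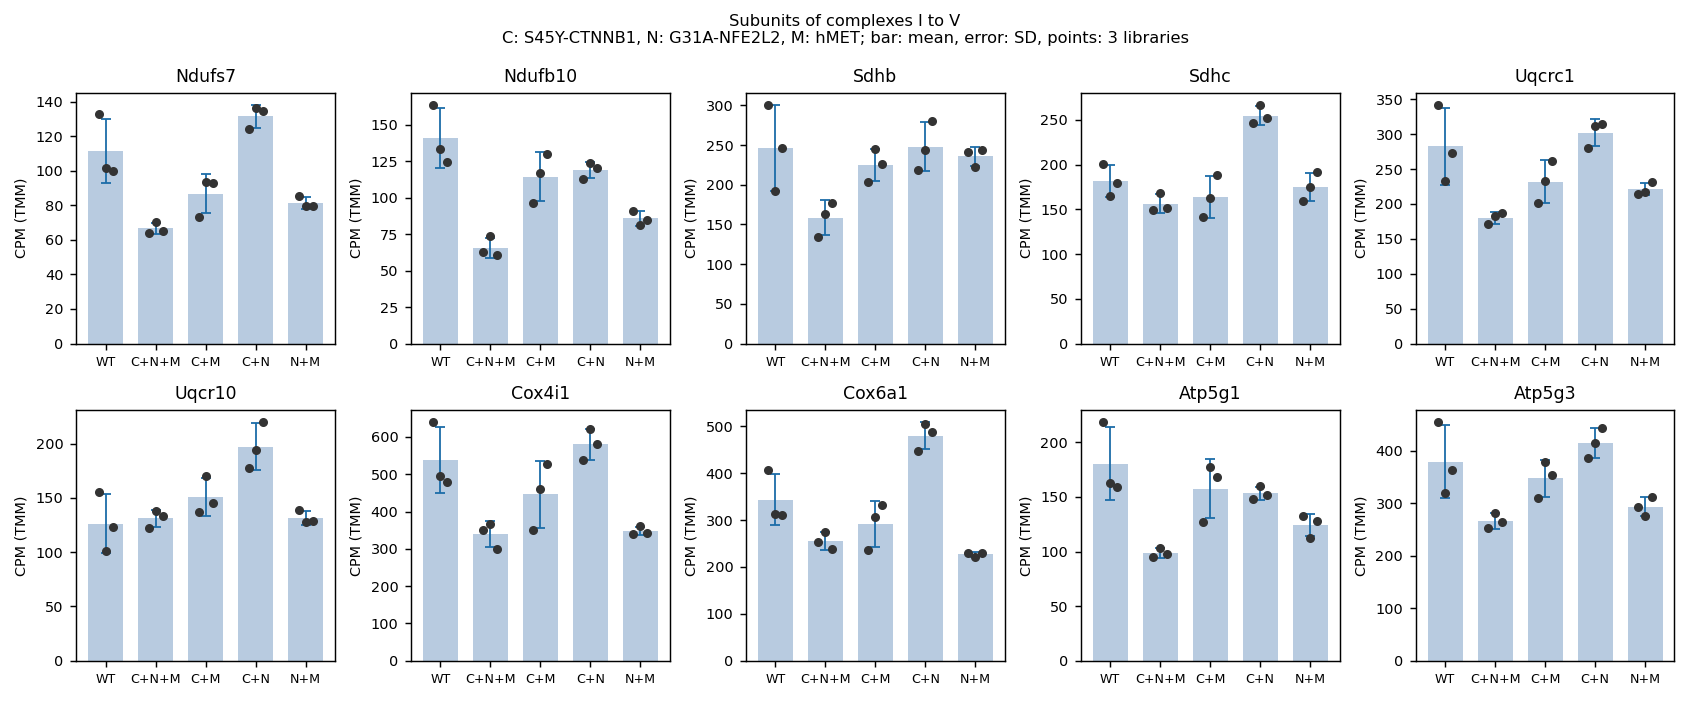
Normalised level in CPM (linear axis from 0) of 10 subunit genes in 5 groups; bars are means, error bars SD and points the 3 libraries of each group. Cox6a1 and Sdhc are highest in every CTNNB1+NFE2L2 library, which holds under both scalings. Sdhb and Atp5g1 are lowest in every CTNNB1+NFE2L2+MET library with TMM scaling, but not with total-count scaling.

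Against wild type, CTNNB1+NFE2L2+MET was lower in 41 genes and higher in 2, with a median log2 fold change of -0.35, beside 23.4% lower and 26.5% higher among all tested genes. By complex, 24 of 36 genes of complex I, 2 of 4 of II, 2 of 8 of III, 4 of 12 of IV and 9 of 17 of V were lower. With libraries scaled by their total count, 16 genes were lower in this comparison, beside 13.4% lower and 37.1% higher among all tested genes. CTNNB1+NFE2L2 was higher than wild type in 23 genes and lower in 2, with a median of 0.21, beside 24.5% higher and 24.2% lower among all tested genes. Without wild-type replicate 1 this count of higher genes was 37. The median was 0.12 without wild-type replicate 2 and 0.14 without CTNNB1+NFE2L2 replicate 3. With total-count scaling the higher count was 46, beside 32.0% higher and 15.1% lower among all tested genes. The share called higher, 23 of 77, was thus near that of all genes under TMM scaling, while its split against lower genes was not. Cell type markers moved in these comparisons too. In CTNNB1+NFE2L2, 9 of 9 hepatocyte markers were lower than in wild type, with a median log2 fold change of -1.06, 9 of 10 macrophage markers were higher (median 1.23) and 6 of 8 stellate markers were lower. In CTNNB1+NFE2L2+MET, 7 of 9 hepatocyte markers were lower (median -0.91), and 9 of 10 macrophage (median 1.49) and 6 of 7 T and NK cell markers (median 1.61) were higher. Their part in the subunit values was not tested.

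NFE2L2+MET was lower than wild type in 12 genes and higher in 1, with a median of -0.14, beside 9.89% lower and 13.5% higher among all tested genes. The lower count was 4 without wild-type replicate 1, where the median was -0.011, 21 without wild-type replicate 2, where it was -0.23, and 7 without NFE2L2+MET replicate 2. It was 29 with total-count scaling, where 17.9% of all tested genes were lower and 9.73% higher. Ndufb10 and Cox4i1 above, with Cox6a1, were among those that passed. In the same comparison 9 of 10 macrophage and 3 of 3 neutrophil markers were higher, and their part was not tested. CTNNB1+MET differed least from wild type, with 3 genes higher and 4 lower, beside 11% higher and 6.22% lower among all tested genes. The median was -0.03, from -0.14 without wild-type replicate 2 and -0.08 without CTNNB1+MET replicate 2 to 0.03 without CTNNB1+MET replicate 1 and 0.09 without wild-type replicate 1. None of these 7 calls passed with each library left out in turn. Without wild-type replicate 1, 6 were higher and 1 lower, and without replicate 2, 1 was higher and 7 lower; without CTNNB1+MET replicate 1 no gene passed, and without its replicate 2, 1 was higher and none lower. The lower count was 2 without CTNNB1+NFE2L2 replicate 1 or 2 or any 1 of the NFE2L2+MET replicates 1, 2 and 3.

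**Figure D3:**
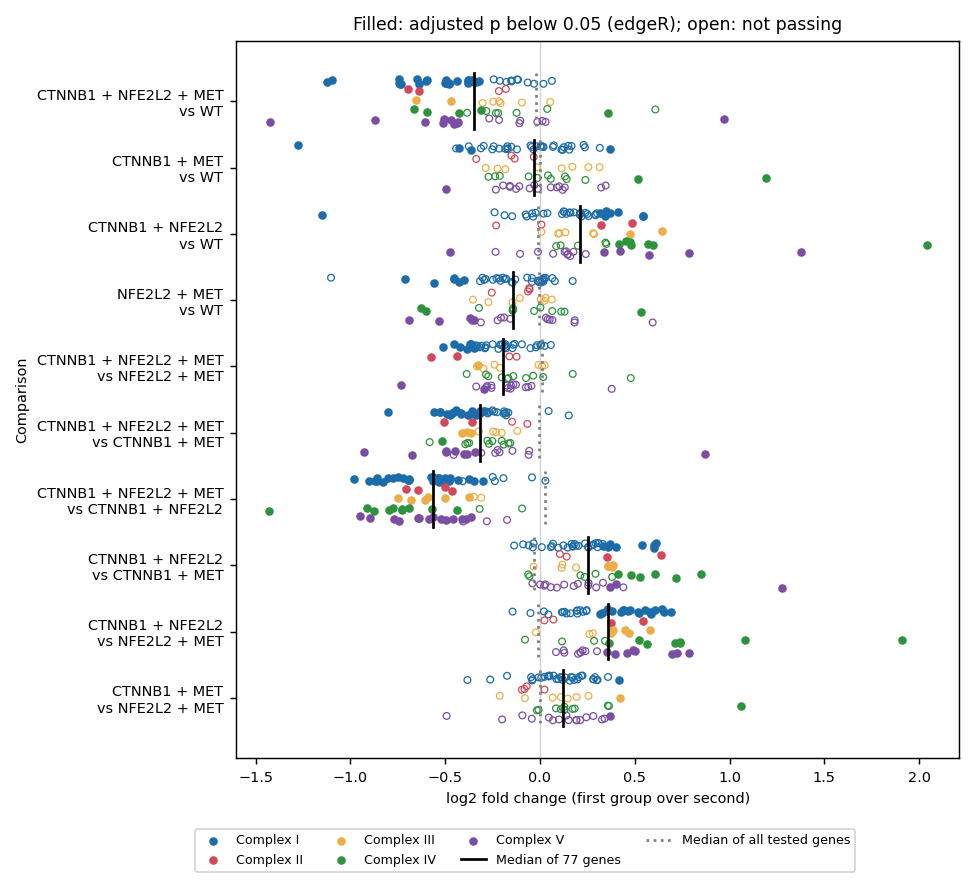
Log2 fold change (x axis) of 77 genes in 10 comparisons (y axis), coloured by complex; filled points pass the edgeR test, open points do not, solid bars are the medians of the 77 genes and dotted bars those of all tested genes. The CTNNB1+NFE2L2+MET over CTNNB1+NFE2L2 comparison has 64 filled points, all below 0.

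The comparisons of CTNNB1+NFE2L2+MET with the groups labelled without hMET, without G31A-NFE2L2 or without S45Y-CTNNB1 gave different pictures. CTNNB1+NFE2L2+MET over CTNNB1+NFE2L2 is the comparison described by complex above, and 70 genes did not overlap between these groups, all lower, beside 20.2% of all tested genes lower in that way. Under total-count scaling 56 genes remained lower, with a median of -0.51, beside 9.45% lower and 14.9% higher among all tested genes. Each single library left out gave 50 to 66 lower genes, and 50 of the 64 calls were kept under every alternative. CTNNB1+NFE2L2+MET over CTNNB1+MET gave 33 lower and 1 higher gene, with a median of -0.32, beside 15.4% lower and 18.4% higher among all tested genes. Without CTNNB1+MET replicate 2 the lower count was 7, without its replicate 3 it was 21 and without CTNNB1+NFE2L2+MET replicate 1 it was 11. Total-count scaling gave 3, beside 7.36% lower and 35.3% higher among all tested genes.

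CTNNB1+NFE2L2+MET over NFE2L2+MET gave 12 lower and no higher gene, with a median of -0.20, beside 14.3% lower and 16.4% higher among all tested genes. That share is near the background. The lower count was 2 without CTNNB1+NFE2L2+MET replicate 1 and 6 without NFE2L2+MET replicate 1 or replicate 3. Under total-count scaling the direction turned, with 13 genes higher and none lower and a median of 0.17. Among all tested genes 43.5% were then higher and 5.64% lower. With TMM scaling, 8 of 9 hepatocyte markers were lower in CTNNB1+NFE2L2+MET than in CTNNB1+MET (median -0.98) and than in NFE2L2+MET (median -1.26). Of 10 macrophage markers, 8 and 7 were higher. Their part in the subunit values was not tested.

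CTNNB1+NFE2L2 exceeded both other pairs. Over NFE2L2+MET, 41 genes were higher and none lower, with a median of 0.36, beside 18.3% higher and 18.9% lower among all tested genes, and 57 genes did not overlap, beside 25.6% of all tested genes higher in that way. Total-count scaling gave 71 higher, beside 36.6% higher and 8.05% lower among all tested genes. Over CTNNB1+MET, 23 genes were higher and none lower, with a median of 0.25, beside 17.9% higher and 17.2% lower among all tested genes. Without CTNNB1+MET replicate 1 this count was 10, and without CTNNB1+NFE2L2 replicate 2 or 3 it was 12. With total-count scaling it was 53, beside 28.7% higher and 9.22% lower among all tested genes. Cell type markers differed too. In CTNNB1+NFE2L2, 8 of 9 hepatocyte (median -1.70), 5 of 6 cholangiocyte and 3 of 3 neutrophil markers were lower than in NFE2L2+MET, and 2 of 2 erythroid markers higher. Against CTNNB1+MET, 9 of 9 hepatocyte (median -1.53) and 3 of 7 T and NK cell markers were lower and 7 of 10 macrophage markers higher. Their part in the subunit values was not tested. CTNNB1+MET over NFE2L2+MET gave 4 higher and no lower gene, with a median of 0.12 (0.06 without CTNNB1+MET replicate 2), beside 6.96% higher and 7.36% lower among all tested genes. None of those 4 calls passed with each library left out in turn: no gene was higher without CTNNB1+MET replicate 2 or NFE2L2+MET replicate 1 or 2, 1 without NFE2L2+MET replicate 3 and 2 without CTNNB1+MET replicate 3.

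Genes whose libraries were wholly apart between groups were also counted. CTNNB1+NFE2L2+MET was wholly below wild type in 37 genes and above it in 3, beside 25.7% and 29.2% of all tested genes, below CTNNB1+MET in 45 and above it in none, beside 24.1% and 25.5%, and below NFE2L2+MET in 38 and above it in 1, beside 22.6% and 24.4%. CTNNB1+NFE2L2 was wholly above wild type in 27 genes and below it in 2, beside 27.8% and 26.3%, above CTNNB1+MET in 37 and below it in none, beside 24.6% and 25.4%, and below NFE2L2+MET in none, beside 26.9%. CTNNB1+NFE2L2+MET was above CTNNB1+NFE2L2 in none, beside 23.5%. CTNNB1+MET was above wild type in 5 and below it in 6, beside 18.4% and 14.2%, and above NFE2L2+MET in 18 and below it in 3, beside 17.9% and 18.7%. NFE2L2+MET was wholly below wild type in 21 genes and above it in 2, beside 16.6% and 20.5%.

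The scaling of the libraries moved the level of all genes and of these genes alike. TMM factors were 1.06 to 1.15 in the CTNNB1+NFE2L2 and CTNNB1+NFE2L2+MET libraries and 0.837 to 0.988 in the others. For CTNNB1+NFE2L2+MET over NFE2L2+MET, total-count scaling moved the median of all tested genes from 0.01 to 0.38. Relative to that median, the 77 genes stood at -0.21 under both scalings. For CTNNB1+NFE2L2+MET over CTNNB1+NFE2L2 they stood at -0.59 under both, and for CTNNB1+NFE2L2 over wild type at 0.22 and 0.21.

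**Figure D4:**
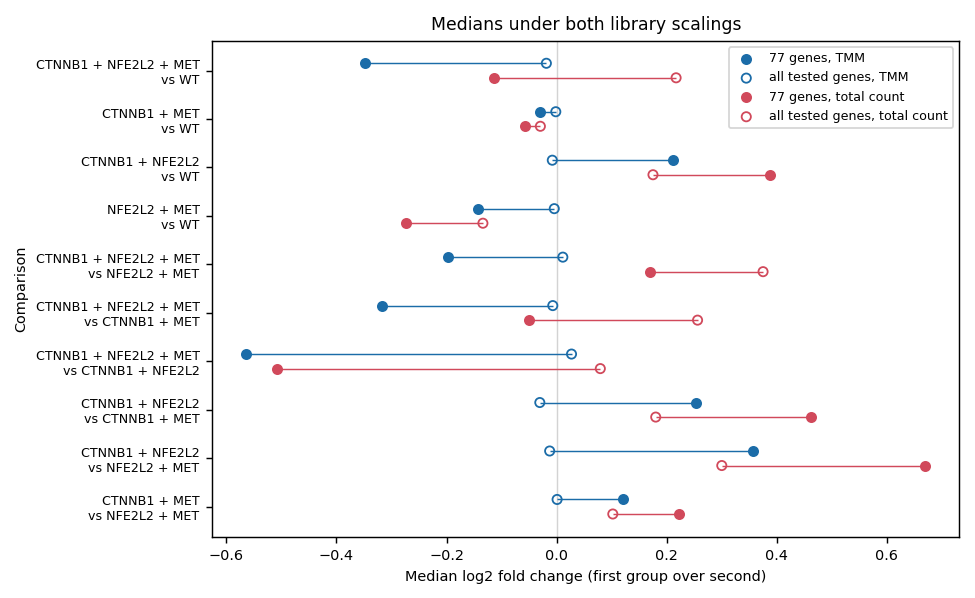
Median log2 fold change (x axis) in 10 comparisons (y axis) of the 77 genes (filled) and all tested genes (open) under TMM (blue) and total-count scaling (red); lines join the medians of 1 scaling. Both medians shift together, so the length of each line is about the same, and only in CTNNB1+NFE2L2+MET over NFE2L2+MET does the filled point cross 0.

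Some genes stood apart from the rest, above all a tissue-restricted isoform. Cox7a1 is the form of subunit 7a of heart, skeletal muscle and brown fat, where Cox7a2 is the form of liver and most tissues. Cox7a1 was at 0.503, 0.771 and 1.03 CPM in wild type, 0.648, 0.732 and 1.15 CPM in NFE2L2+MET and 1.08, 1.35 and 1.12 CPM in CTNNB1+NFE2L2+MET. It was at 1.59, 2.41 and 1.36 CPM in CTNNB1+MET and 2.61, 3.82 and 3.17 CPM in CTNNB1+NFE2L2, from 7 to 73 counts in a library. Every CTNNB1+NFE2L2 library was above all 12 others. Cox7a1 had a log2 fold change of 2.04 ± 0.33 for CTNNB1+NFE2L2 over wild type (edgeR adjusted p = 0.000128) and -1.43 ± 0.31 for CTNNB1+NFE2L2+MET over CTNNB1+NFE2L2 (edgeR adjusted p = 0.00348).

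Even so, Cox7a1 stayed far below its partner, at a mean of 2.91 CPM per kilobase beside 207 for Cox7a2. Cox7a2 was at 157, 162 and 184 CPM in CTNNB1+NFE2L2 and 138, 96.2 and 127 CPM in wild type, a log2 fold change of 0.48 ± 0.13 (edgeR adjusted p = 0.00692). Of 11 markers of striated muscle, summed to 2.71 to 4.33 CPM in every library, Ckm and Myh2 were at 0 throughout, and the summed level was 3.39 to 4.01 CPM in CTNNB1+NFE2L2 and 3.09 to 4.33 CPM in wild type. The brown fat marker Ucp1 did not pass 0.0641 CPM in any library. Ucp1 is 1 of a list of 7 brown fat markers, of which 2 were tested. Of these 2, 1 was higher and 1 lower in CTNNB1+NFE2L2 than in wild type. The 7 genes summed to 82.58 to 918.02 CPM in wild type and 35.29 to 64.49 CPM in CTNNB1+NFE2L2. Their part in the Cox7a1 level was not tested.

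Cox7a2l, also called SCAF1, is known for joining complexes III and IV into supercomplexes. It was at 84.9, 69.1 and 85.3 CPM in wild type and at 93.1 to 129 CPM in the 12 other libraries, none of which reached down to wild type. The log2 fold changes over wild type were 0.45 ± 0.12 in CTNNB1+NFE2L2 (edgeR adjusted p = 0.00585) and 0.53 ± 0.12 in NFE2L2+MET (edgeR adjusted p = 0.00546). They were 0.52 ± 0.12 in CTNNB1+MET (edgeR adjusted p = 0.00870) and 0.36 ± 0.12 in CTNNB1+NFE2L2+MET (edgeR adjusted p = 0.0214). The call in CTNNB1+MET was lost without CTNNB1+MET replicate 1 (0.42, edgeR adjusted p = 0.0535). That in CTNNB1+NFE2L2+MET was lost without wild-type replicate 2 (0.27, edgeR adjusted p = 0.092) or CTNNB1+NFE2L2+MET replicate 3 (0.30, edgeR adjusted p = 0.0818).

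Atp5sl, annotated as Dmac2, is a factor for the assembly of complex I in spite of its older name. It was at 59.8, 56.7 and 43.7 CPM in wild type, 15.5, 21.3 and 22.9 CPM in CTNNB1+NFE2L2+MET and 30.9 to 42.2 CPM in the 9 libraries of the other groups. Those of CTNNB1+NFE2L2+MET were the lowest under both scalings. Every library with an introduced gene was below every wild-type library with TMM, but not with total-count scaling. The log2 fold change over wild type was -1.43 ± 0.16 in CTNNB1+NFE2L2+MET (edgeR adjusted p = 2.93e-06) and -0.69 ± 0.15 in NFE2L2+MET (edgeR adjusted p = 0.00480). CTNNB1+NFE2L2+MET was also lower than CTNNB1+NFE2L2, by a log2 fold change of -0.95 ± 0.16 (edgeR adjusted p = 0.000605).

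Atp5s, once named coupling factor B of the synthase, went the other way. It was at 3.60, 2.49 and 3.78 CPM in wild type, 8.74, 8.41 and 8.45 CPM in CTNNB1+NFE2L2 and 4.51, 6.73 and 8.08 CPM in CTNNB1+NFE2L2+MET. Both groups were above wild type without overlap, with log2 fold changes of 1.38 ± 0.25 (edgeR adjusted p = 0.000345) and 0.97 ± 0.25 (edgeR adjusted p = 0.00456). NFE2L2+MET was at 4.30, 5.12 and 5.44 CPM, a log2 fold change of 0.59 ± 0.26 that did not pass (edgeR adjusted p = 0.107).

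Ndufa4l2, a relative of Ndufa4 known as a target of hypoxia signalling, was at 6.97, 6.94 and 2.25 CPM in wild type and at 1.56 to 3.89 CPM in the other 12 libraries. Wild-type replicate 3 lay among the others, so the groups overlapped. The log2 fold change over wild type was -1.15 ± 0.40 in CTNNB1+NFE2L2 (edgeR adjusted p = 0.0271). That call was lost without wild-type replicate 1 (-0.93, edgeR adjusted p = 0.103), wild-type replicate 2 (-0.90, edgeR adjusted p = 0.111) or CTNNB1+NFE2L2 replicate 3 (-0.92, edgeR adjusted p = 0.104). Its exons also overlap Shmt2 on the opposite strand, and counts made without strand cannot tell them apart. Ndufa4, now placed in complex IV in spite of its name, was at 253 to 373 CPM in wild type and 338 to 433 CPM in CTNNB1+NFE2L2, and the 5 groups did not differ by the test (edgeR adjusted p = 0.144). Without the 4 symbols that match by name and are no core subunits (Ndufa4l2, Cox7a2l, Atp5s and Atp5sl), 63 of 73 genes were lower in CTNNB1+NFE2L2+MET than in CTNNB1+NFE2L2.

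**Figure D5:**
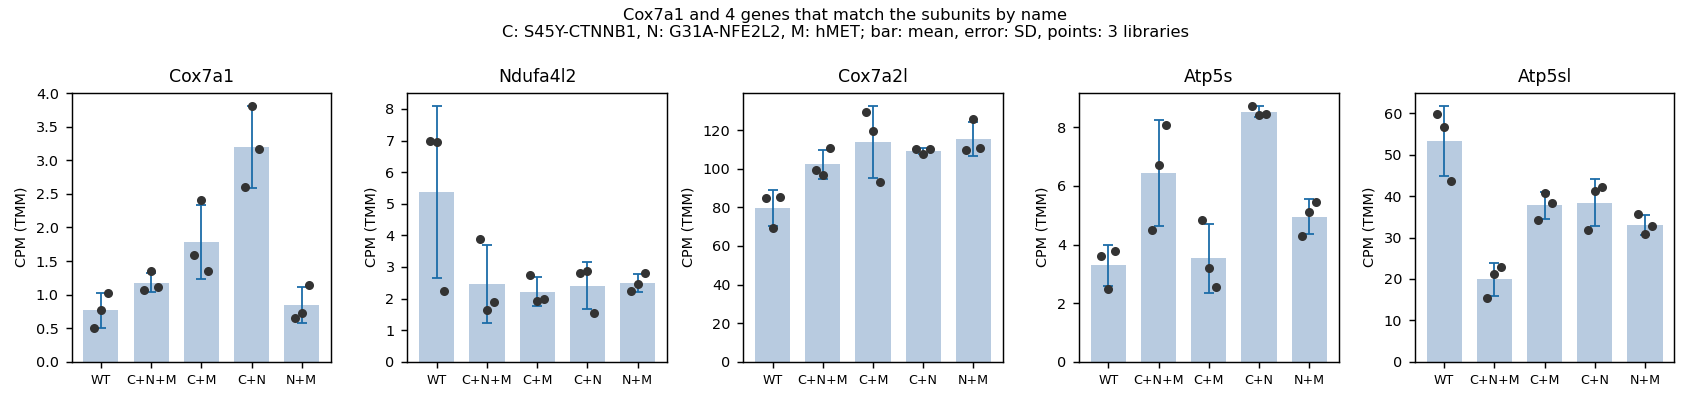
Normalised level in CPM (linear axes from 0, with different scales) of Cox7a1 and 4 genes that match by name in 5 groups; bars are means, error bars SD and points the 3 libraries of each group. Cox7a1 is highest in every CTNNB1+NFE2L2 library, and Atp5sl is highest in every wild-type library, the latter with TMM scaling only.

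The values just inside and outside the limit of 1 CPM were 1.601 (Cox7a1) and 3.002 CPM (Ndufa4l2) against 0.625 (Cox6b2) and 0.283 CPM (Cox4i2). The other symbols left out were Cox6a2 and Cox8b, under 1 CPM, and Ndufs5, Cox7b2 and Cox8c, listed at 0 in every library. No gene of mitochondrial DNA was among the listed symbols, so the core subunits encoded there were not analysed here.

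The rest of the mitochondrial energy pathway moved in part with the subunits between CTNNB1+NFE2L2+MET and CTNNB1+NFE2L2. Of 14 TCA cycle genes, 10 were lower and none higher, with a median log2 fold change of -0.59. Of 14 complex I assembly factors 5 were lower, of 29 factors for complexes II to V 12, of 16 genes of electron carriers and coenzyme Q synthesis 6, and of 77 mitochondrial ribosomal proteins 30, with none higher in any of these 4 lists. Cytosolic ribosomal proteins went the other way, with 19 of 81 higher and none lower. Among all tested genes 11.8% were lower and 13.1% higher. Other lists were mixed or small in their shift. Of 15 mitochondrial import and outer membrane genes 2 were higher and 3 lower. Of 13 genes of pyruvate dehydrogenase and its kinases 1 was higher and 3 were lower. Of 12 hypoxia response genes 2 were higher and none lower. All these directions were the same under total-count scaling.

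Idh2, which makes NADPH and 2-oxoglutarate in mitochondria, was at 281, 404 and 345 CPM in CTNNB1+NFE2L2, at 218, 224 and 195 CPM in CTNNB1+NFE2L2+MET and at 91.8, 83.9 and 83.3 CPM in wild type. The 3 groups did not overlap, and the log2 fold changes were 1.99 ± 0.13 over wild type for CTNNB1+NFE2L2 (edgeR adjusted p = 1.78e-08) and -0.69 ± 0.13 for CTNNB1+NFE2L2+MET over CTNNB1+NFE2L2 (edgeR adjusted p = 0.00134). Mdh2, the malate dehydrogenase of the cycle, was at 365, 404 and 372 CPM in CTNNB1+NFE2L2 and between 169 and 243 CPM in all other libraries.

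Among assembly factors, Cox19, which serves copper delivery to complex IV, was at 68.9, 64.0 and 65.9 CPM in CTNNB1+NFE2L2 and between 24.2 and 32.9 CPM in the other 12 libraries. Coa3, which helps to start complex IV assembly, was at 84.0, 87.1 and 88.5 CPM and between 38.6 and 50.5 CPM. In both genes the CTNNB1+NFE2L2 libraries stood alone. The log2 fold changes over wild type were 1.10 ± 0.12 for Cox19 (edgeR adjusted p = 2.77e-06) and 0.90 ± 0.10 for Coa3 (edgeR adjusted p = 2.82e-06).

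Atpif1, the inhibitor that stops complex V from running backwards, did not follow the subunits. It was at 19.1, 19.8 and 15.2 CPM in wild type, 68.4, 70.3 and 62.1 CPM in CTNNB1+NFE2L2+MET and 66.2, 82.2 and 72.6 CPM in CTNNB1+NFE2L2, and every library of the other 4 groups was above wild type. Its log2 fold change over wild type was 1.89 ± 0.16 in CTNNB1+NFE2L2+MET (edgeR adjusted p = 1.99e-07) and 2.03 ± 0.16 in CTNNB1+NFE2L2 (edgeR adjusted p = 9.44e-08). Ucp2, a carrier of the inner membrane, was likewise at 24.4, 32.9 and 30.0 CPM in wild type and 40.6 CPM or more in all other libraries. Both were picked as the leading genes of a list of 11 other subunits and inhibitors. As a whole that list moved with the subunits between CTNNB1+NFE2L2+MET and CTNNB1+NFE2L2. Of the 11 genes 6 were lower and 1 was higher, with a median log2 fold change of -0.35, beside 11.8% lower and 13.1% higher among all tested genes.

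Regulators of mitochondrial genes, a list that includes Hif1a, were also followed. Of 18 tested, none was higher and 11 were lower in CTNNB1+NFE2L2 than in wild type. Among all tested genes 24.5% were higher and 24.2% lower. Under total-count scaling none was higher and 7 were lower, beside 32.0% and 15.1% of all tested genes. Their part in the subunit levels was not tested. Ppargc1b, a coactivator for these genes, was at 21.9, 11.3 and 22.6 CPM in wild type and at 3.14, 4.55 and 5.39 CPM in CTNNB1+NFE2L2, a log2 fold change of -2.09 ± 0.32 (edgeR adjusted p = 9.58e-05). Ppara, the receptor that turns on fatty acid oxidation, was at 398, 310 and 455 CPM and at 146, 146 and 159 CPM, a log2 fold change of -1.37 ± 0.15 (edgeR adjusted p = 2.88e-06). Neither gene's groups overlapped.

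Nrf1, whose motif is in the promoters above, was at 11.4 to 11.9 CPM in wild type and 9.90 to 11.55 CPM in CTNNB1+NFE2L2, and none of its 10 comparisons passed. Gabpa was at 37.1, 40.8 and 46.4 CPM in wild type and 28.3, 29.1 and 32.3 CPM in CTNNB1+NFE2L2. Of the 18 regulators, 4 were higher and 1 lower in CTNNB1+NFE2L2+MET than in CTNNB1+NFE2L2, with a median log2 fold change of 0.18. Among all tested genes 13.1% were higher and 11.8% lower. The 4 higher were Gabpa, Gabpb2, Hif1a and Ppara. Esrra, the receptor ERR alpha, was the one lower in CTNNB1+NFE2L2+MET than in CTNNB1+NFE2L2, at 30.1, 29.0 and 34.2 CPM beside 38.4, 42.6 and 48.2 CPM, a log2 fold change of -0.47 ± 0.11 (edgeR adjusted p = 0.00639).

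Length and neighbouring genes can touch the counts of these mostly short genes. Their exons span 371 to 4912 bases, with a median of 1001. The 667 tested genes of up to 1000 bases include 38 of the 77. Their median log2 fold change was -0.14 for CTNNB1+NFE2L2+MET over CTNNB1+NFE2L2 and 0.21 for CTNNB1+NFE2L2 over wild type. The medians of the 77 genes were -0.56 and 0.21. The 2717 tested genes of 1000 to 2000 bases, 29 of them among the 77, had medians of -0.06 and 0.12. For genes of 2000 to 4000 bases, 8 of them among the 77, they were 0.03 and 0.01. For longer genes, 2 of them among the 77, they were 0.09 and -0.13. The part of length in the subunit values was not tested. Exons of 22 of the 77 genes overlap another gene, 20 of them on the opposite strand. At least 1 stretch of 50 bases is shared with another gene's transcripts in 36 of them, and the share is above 50% in Atp5l and Atp5o, whose values are uncertain.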

How the data were processed

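The deposited files held whole-number read counts per gene symbol for each of 15 libraries. Per the submitters' processing notes, the authors trimmed reads with Trimmomatic and aligned them to mm10 with STAR. Tool versions and the annotation release were not given in the sources used here. The unstranded count column was used, since the column of either strand held near 50% of their sum (49.7 to 49.9%). Counts were joined by symbol, and 14098 genes passed filterByExpr by group. R 4.3.3 and edgeR 4.0.16 fitted TMM-scaled counts with 1 coefficient per group (quasi-likelihood, robust) and tested 10 comparisons and all 5 groups together. Standard errors come from the F statistic. Levels are TMM-scaled CPM, and exon lengths and positions come from GENCODE on GRCm38. The fit was tested on simulated data. Alternatives were total-count and RLE scaling, no filter, DESeq2 1.42.0, counts of 1 strand, the 3 libraries whose files are marked as added (as a term, or left out), and each library left out.

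The members and lists were chosen with earlier results of these data known. Genes named are, in each complex, the 2 with the smallest p across groups and the 2 with the highest level per kilobase, the 3 largest rises and falls of each comparison, all of complex II, isoforms with a tissue-restricted or common partner, the 2 leading genes of each list and the regulators. Named after their values were seen are Ndufb5, Atp5d, Atp5l and Atp5o. Replicate numbers follow sample order and pair nothing. No 2 libraries were duplicates: the chi-square per gene was 14.1 to 116. Counting error bears most on the low genes Cox7a1, Ndufa4l2 and Atp5s.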

Additional observations from a re-analysis of the deposited data

Results flagged for a closer look

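In 4 genes CTNNB1+NFE2L2+MET and CTNNB1+NFE2L2 both differed from wild type by the edgeR test, but in opposite directions, and the difference between the 2 groups itself passed. All were lower than wild type in CTNNB1+NFE2L2+MET and higher in CTNNB1+NFE2L2. The log2 difference between the groups was -0.91 for Cox6a1, -0.73 for Cox6b1, -0.77 for Atp5d, the delta subunit of the synthase, and -0.69 for Ndufb5, a membrane arm subunit of complex I. All 4 lower calls over wild type were lost under total-count scaling, and those of Cox6a1 (-0.29, edgeR adjusted p = 0.0919) and Atp5d (-0.29, edgeR adjusted p = 0.0793) also without wild-type replicate 1. The higher calls of Ndufb5 (0.25, edgeR adjusted p = 0.0651) and Atp5d (0.22, edgeR adjusted p = 0.168) were lost without wild-type replicate 2. The lower call of Cox6b1 over wild type (log2 fold change -0.31, edgeR adjusted p = 0.043) was lost under 14 alternatives, among them without wild-type replicate 1 (-0.17, edgeR adjusted p = 0.243).

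Cox6a1 also differed in opposite directions in CTNNB1+NFE2L2 and NFE2L2+MET, by a log2 difference of 1.08, which passed as well.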

How the results depend on the processing

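No paired analysis was possible because the replicate numbers follow sample order and tie no library of one group to another. Total-count scaling gave 16 genes lower in CTNNB1+NFE2L2+MET than in wild type (41 with TMM), 46 higher and 0 lower in CTNNB1+NFE2L2 than in wild type (23 and 2), 29 lower in NFE2L2+MET than in wild type (12), 3 lower in CTNNB1+NFE2L2+MET than in CTNNB1+MET (33), and 53, 71 and 9 higher in CTNNB1+NFE2L2 over CTNNB1+MET, CTNNB1+NFE2L2 over NFE2L2+MET and CTNNB1+MET over NFE2L2+MET (23, 41 and 4). For CTNNB1+NFE2L2+MET over NFE2L2+MET it gave 13 higher and 0 lower (0 and 12), and log2 fold changes of 0.32 for Atp5g2, 0.35 for Ndufa2, 0.36 for Uqcr10 and 0.039 for Uqcrfs1, which were below 0 with TMM; total-count scaling moved all genes there. Counts of 1 strand gave 2 lower in CTNNB1+MET than in wild type and 0 higher in CTNNB1+NFE2L2+MET than in CTNNB1+MET. Leaving out the libraries marked as added gave 0 higher in that comparison and 1 higher in CTNNB1+MET over NFE2L2+MET, where DESeq2 and a term for those libraries each gave 1 lower. Without the 4 symbols that match by name alone, an alternative chosen after seeing the data, 0 were higher in CTNNB1+NFE2L2+MET and in NFE2L2+MET than in wild type, 2 lower in CTNNB1+MET and 0 lower in CTNNB1+NFE2L2 than in wild type, and 0 higher in CTNNB1+NFE2L2+MET than in CTNNB1+MET; the cause of these shifts is that those symbols held the calls.

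Leaving out 1 library at a time gave these ranges. Over wild type, CTNNB1+NFE2L2+MET had 1 to 2 higher and 28 to 53 lower, CTNNB1+MET 0 to 6 higher and 0 to 7 lower, CTNNB1+NFE2L2 16 to 37 higher and 0 to 2 lower, and NFE2L2+MET 4 to 21 lower. CTNNB1+NFE2L2+MET had 2 to 16 lower than NFE2L2+MET, 7 to 40 lower and 0 to 1 higher than CTNNB1+MET, and 50 to 66 lower than CTNNB1+NFE2L2. CTNNB1+NFE2L2 had 10 to 32 higher than CTNNB1+MET and 28 to 47 higher than NFE2L2+MET, and CTNNB1+MET had 0 to 6 higher and 0 to 1 lower than NFE2L2+MET. The 5 groups differed in 54 to 68 genes. Apart from total-count scaling and the sets named here, the causes were not tested. The kept calls were 50 of 64 for CTNNB1+NFE2L2+MET over CTNNB1+NFE2L2, 26 of 41 for CTNNB1+NFE2L2 over NFE2L2+MET, 15 of 23 for CTNNB1+NFE2L2 over wild type and 16 of 41 for CTNNB1+NFE2L2+MET over wild type, under every alternative. With 3 libraries a group, small differences were not detectable, and Cox7a1, with few counts, is the least precise.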

Other observations

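Pdp1, the phosphatase that switches pyruvate dehydrogenase on, was at 15.2, 10.05 and 10.8 CPM in CTNNB1+NFE2L2+MET and 4.23 CPM or less in the other 12 libraries. Its log2 fold change over CTNNB1+NFE2L2 was 1.83 ± 0.22 (edgeR adjusted p = 4.69e-05), against the fall of the subunits. Pdk1, a kinase that switches the same enzyme off, was at 22.9, 18.5 and 25.6 CPM in CTNNB1+NFE2L2+MET and 16.8, 21.9 and 22.6 CPM in CTNNB1+NFE2L2, beside 43.9, 51.3 and 43.6 CPM in wild type. Both groups were below wild type without overlap, by log2 fold changes of -1.05 ± 0.14 (edgeR adjusted p = 2.43e-05) and -1.18 ± 0.14 (edgeR adjusted p = 9.29e-06).

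Etfdh, which passes electrons of fatty acid oxidation to coenzyme Q, was at 263, 264 and 361 CPM in wild type and at or below 182 CPM in all other libraries. The log2 fold change over wild type ranged from -0.83 in CTNNB1+MET to -1.20 in CTNNB1+NFE2L2, so it was lower where the subunits were highest. Ndufaf6, an assembly factor of complex I, was at 26.6, 26.7 and 28.1 CPM in CTNNB1+NFE2L2 and at 8.77 to 17.7 CPM in the others, a log2 fold change of 1.40 ± 0.15 over wild type (edgeR adjusted p = 3.24e-06). Mrps18a, a protein of the mitochondrial ribosome, was at 150, 144 and 111.4 CPM in CTNNB1+NFE2L2, 79.4, 86.6 and 75.4 CPM in CTNNB1+NFE2L2+MET and 30.1 to 41.5 CPM in the other 9 libraries.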
